A study of Mus musculus with 24 samples.

Results

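The MHC class II presentation genes H2-Aa, H2-Ab1, H2-Eb1, Cd74, Ciita, H2-DMa and H2-DMb1 were followed by their gene symbols through the RNA-seq tables of white adipose tissue, and all 7 were found among 56899 entries. Retroperitoneal fat of C57BL/6J offspring (C57BL/6JRJ in the study's methods) was sequenced as poly(A) RNA, 1 library per mouse and 24 libraries in all. The mothers received AIN-93G with vitamin D3 at 1.0 IU/g (CTRL) or without it at 0.0 IU/g (VDD) for 8 weeks before mating and on through gestation, and all of them received AIN-93G with vitamin D3 from birth to weaning. Their sons and daughters received AIN-93M (LF) or a purified diet with 45% of energy from fat (HF) from 6 weeks of age, for 8 weeks, and were fasted overnight before tissue was taken. This gave CTRL LF, CTRL HF, VDD LF and VDD HF groups of 3 males and 3 females each, and neither litter nor library batch is given in the sources used here. Mice are named here by group and by the number in the column names. The word renal stands in the column names of 6 of the 24 libraries (CTRL LF male 2287, CTRL HF male 2131, VDD LF male 2302, VDD HF male 2307, CTRL LF female 2124 and VDD LF female 2312), and no source used here says what it marks. No HF female is among these 6. The S numbers that open their column names are all higher than those of the other libraries, for a reason not given. Some libraries also stood apart by markers of neighbouring tissue. The summed normalized reads of 5 skeletal muscle markers ran from 92.5 in CTRL LF female 2125 to 823858 in VDD LF male 2310, and those of 5 kidney markers were 6987 in VDD LF female 2303 against 7.69 to 569 in the other mice.

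MHC class II molecules are pairs of an alpha and a beta chain that hold peptides from endocytosed proteins at the cell surface, where CD4+ T cells read them. H2-Aa and H2-Ab1 encode the alpha and beta chains of I-A, and H2-Eb1 encodes the beta chain of I-E, whose alpha chain C57BL/6 mice do not make. Cd74 encodes the invariant chain, which guides new class II dimers to endosomes and fills their groove, and H2-DMa and H2-DMb1 encode the chains of the DM chaperone that helps exchange what is left of it for peptide. Ciita encodes the coactivator that switches these genes on together. Dendritic cells, macrophages and B cells are the main class II cells of fat, and adipocytes have been described to express class II genes as well.

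The letters ahead of the transcription start of the RefSeq entry are shown for 3 members that share a short arrangement there. RefSeq promoter entries (GRCm38.p6) were at hand for 4 of the 7 members (H2-Aa, H2-Eb1, H2-DMb1 and H2-DMa), and the 250 bases before each start were searched on both strands for CTNGNAAC, as in the X box of class II promoters, and for GATTGG, the reversed CCAAT of the Y box. Capitals mark the 2 motifs in the stretches below, each read 5′ to 3′ on the strand of its gene.
H2-Aa (chr17:34287842-34287932, minus strand): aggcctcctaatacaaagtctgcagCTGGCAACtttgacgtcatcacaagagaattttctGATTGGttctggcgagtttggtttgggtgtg
H2-Eb1 (chr17:34305748-34305837, plus strand): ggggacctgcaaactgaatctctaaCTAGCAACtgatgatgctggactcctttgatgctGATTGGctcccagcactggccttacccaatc
H2-DMb1 (chr17:34153069-34153159, plus strand): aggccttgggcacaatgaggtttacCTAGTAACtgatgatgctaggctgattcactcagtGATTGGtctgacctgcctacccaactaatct
The 2 motifs stood in the same order and nearly the same distance apart, with 27 bases between them in H2-Aa, 26 in H2-Eb1 and 27 in H2-DMb1. The X-like motif began 84, 94 and 97 bases before the RefSeq start. In GENCODE M21 the H2-DMb1 gene begins further upstream, at chr17:34153072, so both of its motifs lie inside that annotation. In the 2 entries of H2-DMa this pair was not found, and 1 of them held GATTGG, 199 bases before its start. Both H2-DMa windows lie inside the GENCODE span of that gene. H2-Ob, a class II gene outside the 7 members, held the pair too, with 24 bases between. The pair was thus neither found in every member searched nor limited to members. Of 32851 promoter windows of the same length, 10.9% held CTNGNAAC, 14.6% held GATTGG, and 0.122% (40) held the first followed by the second on 1 strand with 10 to 40 bases between. The motif letters were chosen with these sequences in view, and a match is a description of the letters only.

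All class II members but Ciita and Cd74 lie in the major histocompatibility complex on chromosome 17 (mm10, GENCODE M21). H2-DMa spans chr17:34119541-34139101 (plus strand), H2-DMb1 chr17:34153072-34160230 (plus), H2-Ab1 chr17:34257689-34269419 (plus), H2-Aa chr17:34282744-34287823 (minus) and H2-Eb1 chr17:34305867-34316674 (plus). Ciita is at chr16:10480059-10528418 (plus). On the opposite strand, H2-DMa overlaps Brd2, CR974462.4 and Gm20493, H2-Eb1 overlaps Gm20513, and Ciita overlaps Dexi. The library kit keeps strand, but no source used here says whether the counting did, and without it the reads of such pairs cannot be told apart. On the same strand, H2-DMa overlaps CR974462.3 and Cd74 overlaps Mir5107, and strand does not separate these. Under HF against LF, Brd2 differed by a log2 fold change of −0.05 (SE 0.06) and Dexi by −0.07 (SE 0.09), against 0.98 for H2-DMa and 1.15 for Ciita. H2-DMb1 shares 22.7% of its 50-base stretches with its neighbour H2-DMb2. Read pairs that fit both genes equally well have more than 1 position and were not kept by the authors, so both genes can be under-counted. How many read pairs this touched was not tested.

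Measured per length, the class II genes kept 1 order in nearly every mouse. As reads on the gene per kilobase of its exons, scaled to the same library total of reads on genes (RPKM), the median over 24 libraries was 226 for Cd74, 107 for H2-Eb1, 78.1 for H2-Aa and 69.0 for H2-Ab1. The chaperone genes were far lower, at 7.70 for H2-DMb1 and 4.61 for H2-DMa, and Ciita had 0.952. Each gene stood above the next in this order in 24 of 24 libraries, except that H2-Aa stood above H2-Ab1 in 22 of 24. The length was that of all annotated exons of a gene joined, and part of the order depends on it. In normalized reads without this division, the median of H2-Aa (4827) was above that of H2-Eb1 (3181). Likewise H2-DMa (259) was above H2-DMb1 (201). The 7 genes together took 0.0623% to 0.412% of the reads of a library, and libraries had 13346779 to 18484346 reads on genes. H2-Ea-ps, the I-E alpha locus, was listed at 0 in 23 of 24 libraries. Cd74 spans chr18:60803848-60812652 (plus strand).

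Ciita was higher under HF in most mice of every stratum. In normalized reads, it had 127, 93.5 and 219 in CTRL LF males against 194, 267 and 336 in CTRL HF males, and 114, 94.1 and 72.5 in VDD LF males against 183, 252 and 350 in VDD HF males. In females it had 127, 146 and 98.8 (CTRL LF) against 223, 275 and 229 (CTRL HF), and 76.4, 56.3 and 96.6 (VDD LF) against 510, 108 and 111 (VDD HF). The LF and HF mice overlapped in CTRL males only, where CTRL LF male 2296 lay above CTRL HF male 2127.

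H2-Aa, the I-A alpha chain, showed the same contrast. In normalized reads it had 3891, 4860 and 6545 in CTRL LF males, 8319, 5547 and 8243 in CTRL HF males, 4219, 4144 and 3329 in VDD LF males and 5749, 7375 and 8493 in VDD HF males. In CTRL females H2-Aa had 3774, 3690 and 3261 (LF) against 4961, 7590 and 5637 (HF), and in VDD females 3390, 3147 and 4794 (LF) against 19816, 4060 and 3422 (HF). The lowest HF mouse lay above the highest LF mouse in VDD males and CTRL females, while the groups overlapped in CTRL males and VDD females. H2-Ab1 followed the same course, from 2163 ± 161 in CTRL LF females to 4075 ± 1134 in CTRL HF females and from 2278 ± 182 in VDD LF males to 4620 ± 911 in VDD HF males (mean ± SD, n = 3). H2-Eb1, whose product has no I-E alpha chain to pair with in these mice, went from 2394 ± 102 to 4146 ± 996 in CTRL females and from 2578 ± 458 to 4634 ± 712 in VDD males (n = 3). For both beta chains, as for H2-Aa, no LF mouse of these strata reached an HF mouse.

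Cd74, the most abundant member, had 4602, 5440 and 4244 normalized reads in VDD LF males against 7802, 9233 and 10745 in VDD HF males. It had 4711, 4882 and 3882 in CTRL LF females against 7252, 11028 and 8206 in CTRL HF females. These values put every HF mouse of both strata above every LF mouse. In CTRL males Cd74 had 4666, 5436 and 9146 (LF) against 12129, 8189 and 12181 (HF), with CTRL LF male 2296 inside the HF range. H2-DMa went from 194 ± 13.9 to 467 ± 116 normalized reads in VDD males and from 202 ± 20.5 to 408 ± 102 in CTRL females (mean ± SD, n = 3). H2-DMb1 had 143, 185 and 274 in CTRL LF males against 379, 274 and 393 in CTRL HF males, and it was the sole member whose deposited values did not overlap between these groups.

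**Figure D1:**
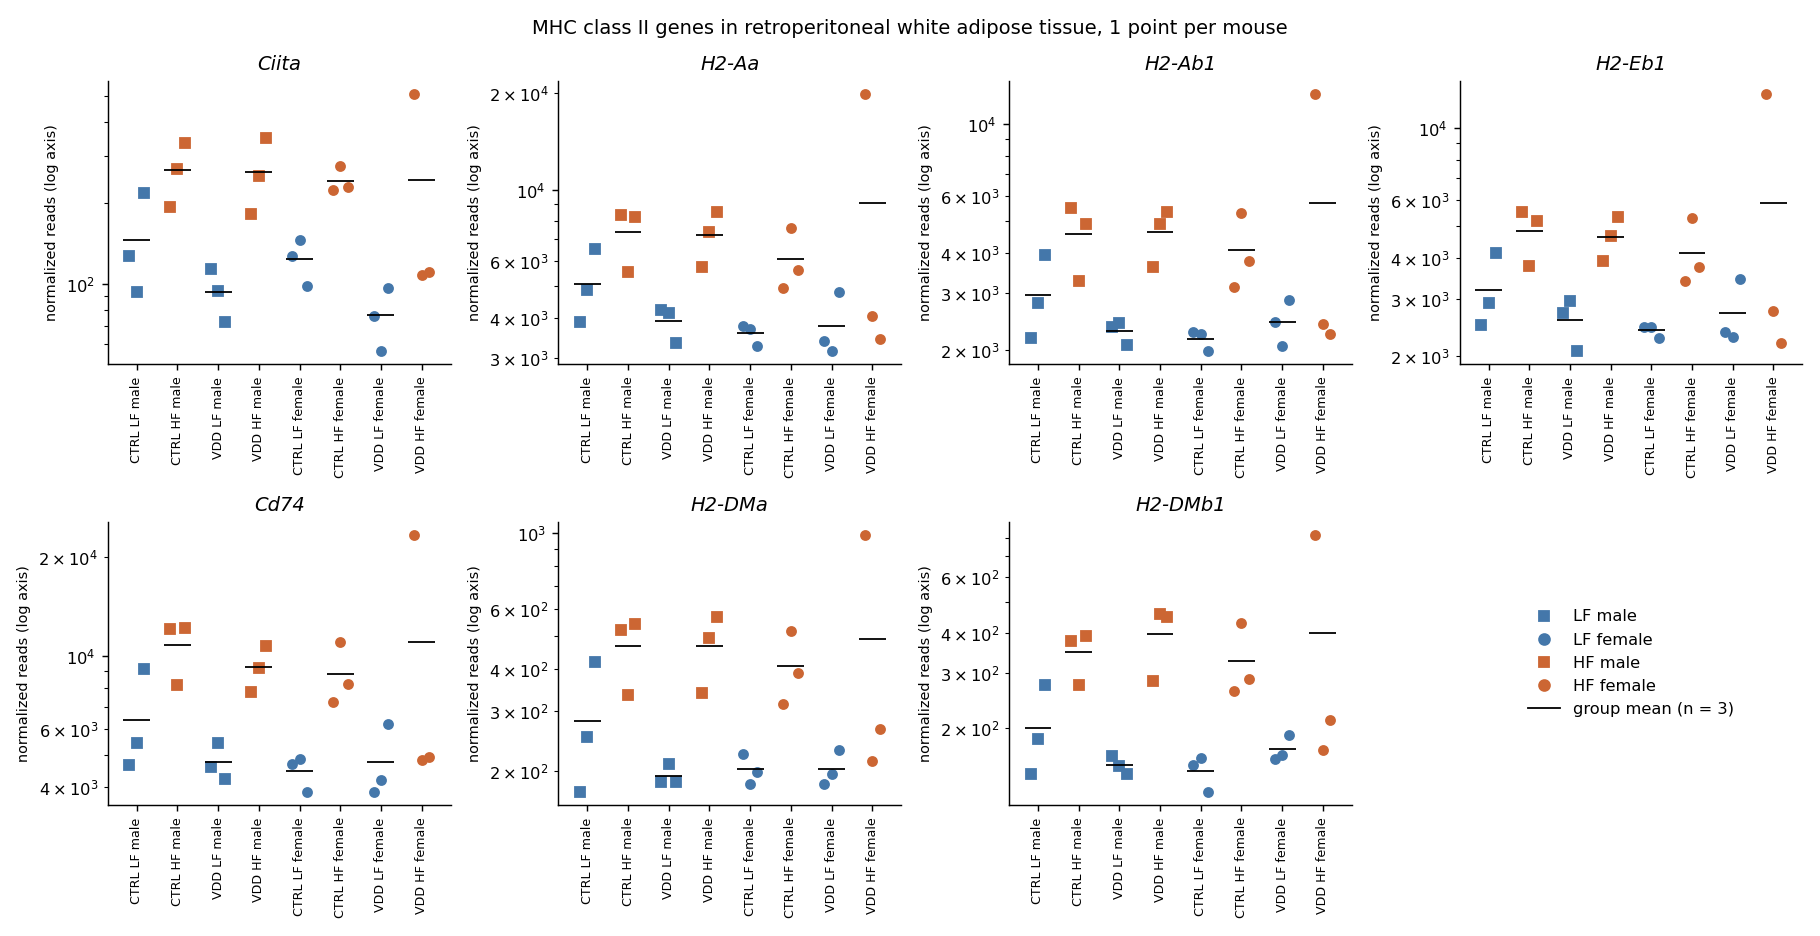
Normalized reads (log axis) of the 7 class II genes in each of the 24 mice, by group, with squares for males, circles for females, blue for LF, orange for HF and black lines for group means (n = 3). Orange lies above blue in most strata, and VDD HF female 2081 is the highest point for every gene, at 19816 for H2-Aa and 510 for Ciita.

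The question of what the HF diet did on 1 maternal background was asked in each stratum from its own deposited table with limma. The log2 fold changes of the 7 members (HF over LF, on log2(normalized reads + 1)) were all above 0, at 0.53 to 0.90 in CTRL males, 0.85 to 1.45 in VDD males, 0.72 to 1.10 in CTRL females and 0.68 to 1.28 in VDD females. Their medians were 0.77, 1.00, 0.94 and 0.82, where the median over all genes tested was −0.02, 0.01, 0.01 and −0.01. None of the 7 passed the call (adjusted p under 0.01 and a fold above 1.5 or below 0.66) in any stratum, with limma or with limma-voom. Few genes did: the share of all genes called in either direction was 0.0578% in CTRL males, 0.0752% in VDD males, 0.00% in CTRL females and 0.00% in VDD females. The study reported far more differentially expressed genes in each of these comparisons with DESeq2 at the same adjusted p limit. These low shares therefore describe the present fit.

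An unadjusted p under 0.05 was reached by 6 of 7 members in CTRL males, 7 of 7 in VDD males, 7 of 7 in CTRL females and 0 of 7 in VDD females, each time with the higher level under HF. The share of all genes with such a p in either direction was 18.8%, 25.9%, 28.8% and 5.05%. The range of adjusted p was 0.152 to 0.298 in CTRL males, 0.0308 to 0.0604 in VDD males, 0.0346 to 0.0563 in CTRL females and 0.837 to 0.869 in VDD females (limma, Benjamini-Hochberg over all genes tested). The 3 HF mice lay above the 3 LF mice for 1, 7, 7 and 1 of the 7 members in these strata, against 13.0%, 17.0%, 16.9% and 5.55% of all genes. In VDD females the member that did so was Ciita. With whole tissue, more cells that express class II and more class II RNA per cell cannot be told apart.

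Over all 24 libraries the class II genes were higher under HF than under LF, and 5 of 7 passed the call in the mean of the 4 strata. Ciita rose 2.22-fold (log2 fold change 1.15, SE 0.22, adjusted p = 0.000872), H2-DMb1 2.05-fold (1.04, SE 0.20, adjusted p = 0.000788) and H2-DMa 1.97-fold (0.98, SE 0.20, adjusted p = 0.0015). Cd74 rose 1.84-fold (0.88, SE 0.21, adjusted p = 0.00369) and H2-Ab1 1.76-fold (0.81, SE 0.22, adjusted p = 0.00804). The call of H2-Ab1 was the least secure, since it was lost without the filter on low values and when any 1 of 16 of the 24 libraries was left out. H2-Aa and H2-Eb1 missed the adjusted p of the call, with 0.74 (SE 0.21, adjusted p = 0.013) and 0.73 (SE 0.21, adjusted p = 0.0132). Across the genome 5.79% of genes were called higher and 3.65% lower in this contrast, and the median of all genes was 0.01 against 0.88 for the 7 members. An unadjusted p under 0.05 was reached by 7 of 7 members and by 39.7% of all genes. With the level of skeletal muscle markers as a covariate, the log2 fold changes were 0.74 to 1.17 and the same number, 5 of 7, was called. Without the 6 libraries named renal, with 18 left, the log2 fold changes were 0.74 to 1.15 and 0 of 7 were called (adjusted p 0.0205 to 0.0916, limma). The share of all genes called in that setting is not given here. Whether the loss of calls is particular to the members was not tested.

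**Figure D2:**
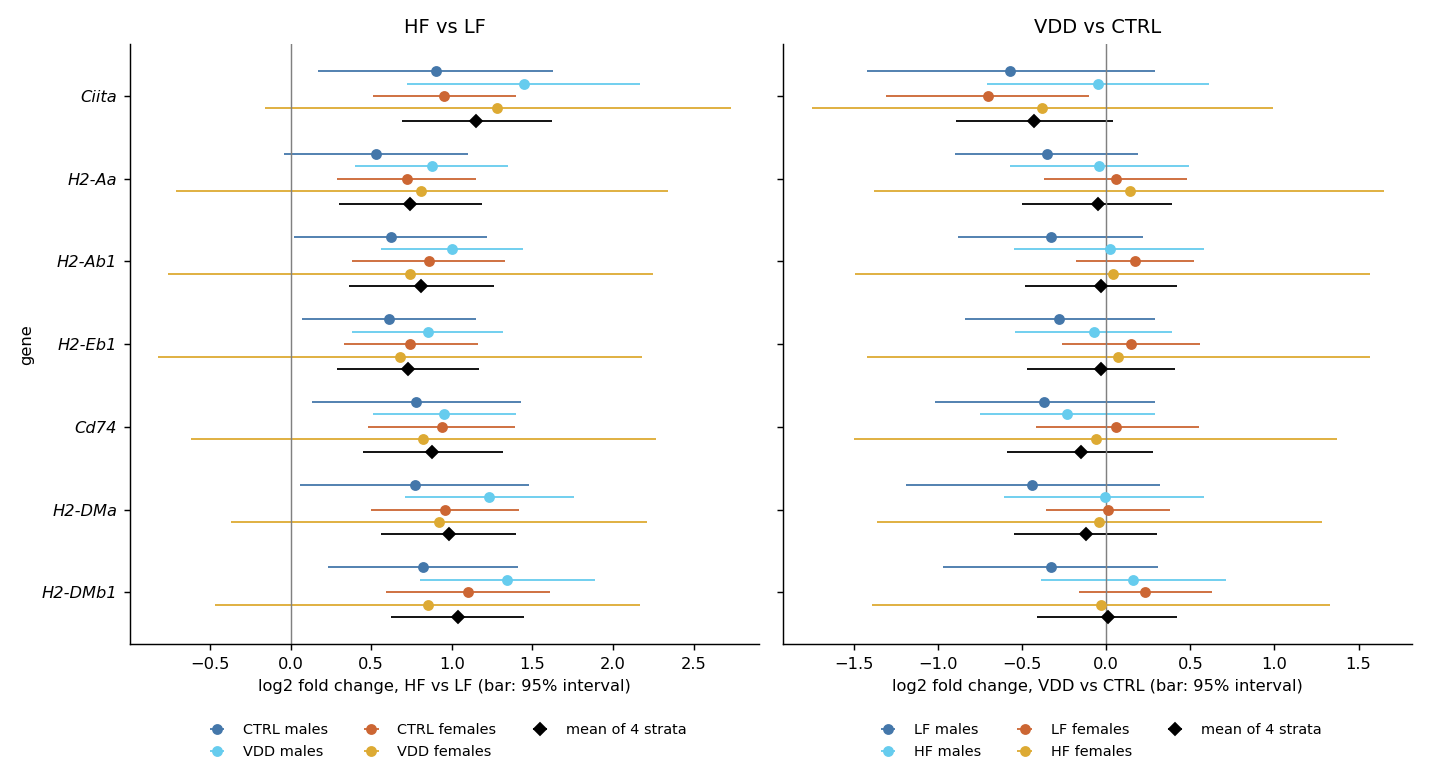
Log2 fold changes of the 7 class II genes with 95% intervals, HF vs LF at left and VDD vs CTRL at right, for each stratum (own table, 3 vs 3) and for the mean of 4 strata (24 libraries, black diamonds). At left the black diamonds lie between 0.73 and 1.15 and no interval of theirs reaches 0, while at right they lie between −0.43 and 0.01 and every one of their intervals crosses 0.

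VDD HF female 2081 stood apart from the other 23 mice and held the highest value of all 24 libraries for 7 of 7 members, as it did for 877 of all 18399 genes tested (4.77%). Against the mean of VDD HF females 2083 and 2121 on the log2 scale, H2-Ab1 was 5.38-fold, H2-Aa 5.32-fold, H2-Eb1 5.18-fold, Cd74 4.78-fold, Ciita 4.63-fold, H2-DMb1 4.29-fold and H2-DMa 4.14-fold higher. Between 0.87% and 1.85% of 18399 genes were as far above these 2 mice as a member was. Without this mouse, the fold change for HF vs LF in VDD females was −0.11 to 0.54 on the log2 scale, and H2-Ab1 and H2-Eb1 turned below 0, at −0.07 and −0.11. In the mean of 4 strata the values fell to 0.53 to 0.97, with adjusted p of 0.000113 to 0.00248. The same 5 members were then called, since H2-Aa (0.54) and H2-Eb1 (0.53) fell short of the 1.5-fold limit while their adjusted p passed.

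Other gene groups were high in the same mouse. The median log2 difference of 2081 from the other VDD HF females was 2.26 for the class II members, 2.55 for T cell markers, 1.84 for macrophage markers, 1.74 for dendritic cell markers, 1.36 for class I presentation genes, 1.23 for interferon gamma targets and 0.80 for B cell markers, against −0.01 over all genes tested. It was the highest of 24 libraries for 6 of 6 T cell markers, 8 of 10 class I genes, 6 of 8 interferon gamma targets, 4 of 8 dendritic cell markers, 2 of 8 macrophage markers and 0 of 7 B cell markers. The summed T cell markers were 1017 normalized reads in 2081 and 148 and 154 in the other VDD HF females. Their part in the class II values of this mouse was not tested.

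Maternal vitamin D deficiency was compared with the control diet on the same offspring diet. The 7 members had log2 fold changes (VDD over CTRL) of −0.57 to −0.28 among LF males, −0.70 to 0.23 among LF females, −0.23 to 0.16 among HF males and −0.38 to 0.14 among HF females. None of the members was called in the 4 comparisons, nor was any gene at all, so that the share called was 0.00% in each. At an unadjusted p under 0.05 limma counted 0 of 7 members among LF males, 1 among LF females, 0 among HF males and 0 among HF females, where 6.79%, 12.0%, 5.31% and 16.7% of all genes passed in either direction, and limma-voom called none. In LF males all 7 estimates were below 0, with adjusted p of 0.815 to 0.849, and their median of −0.35 became −0.10 without CTRL LF male 2296 and −0.54 without CTRL LF male 2287. Skeletal muscle markers were very uneven between males. Their median log2 fold change (VDD over CTRL) was 3.79 in LF males (0 of 5 at an unadjusted p under 0.05). It was 6.47 in HF males (4 of 5, adjusted p = 0.94, limma). In LF males their sums were 54213, 330 and 738 normalized reads in CTRL mice against 223, 41662 and 823858 in VDD mice, which overlap. In HF males the sums were 1199 to 2987 normalized reads in CTRL mice against 189452, 293048 and 1417 in VDD mice, the last within the CTRL range. With these markers as a covariate over the 24 libraries 0 of 7 members were called for VDD vs CTRL.

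The member that passed at the unadjusted level was Ciita in LF females, with 127, 146 and 98.8 normalized reads in CTRL LF females against 76.4, 56.3 and 96.6 in VDD LF females. The groups did not overlap, and the log2 fold change was −0.70 (95% interval −1.31 to −0.10, adjusted p = 0.403, limma). In this comparison 9.74% of all genes were lower in all 3 VDD mice and 8.48% were higher in all 3, the latter with H2-DMb1 among them (153, 161 and 126 in CTRL LF females against 160, 165 and 191 in VDD LF females when scaled over 24 libraries, where 160 lies under 161). Over the 4 strata Ciita differed by −0.43 (SE 0.22, 95% interval −0.89 to 0.04, adjusted p = 0.254), and the other 6 members by −0.15 to 0.01, with intervals from −0.59 to 0.42. In this contrast 0.103% of all genes were called and 22.9% had an unadjusted p under 0.05, which 0 of 7 members had. Without VDD HF female 2081, Ciita differed by −0.61 (adjusted p = 0.0292, limma), with the level of B cell markers as a covariate by −0.21 (adjusted p = 0.602), and with that of skeletal muscle markers by −0.33 (adjusted p = 0.438).

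No difference in class II transcripts between females and males was detected beyond the spread between mice. The log2 fold change of females over males ranged from −0.26 (Ciita) to −0.16 (H2-Ab1), with SE of 0.20 to 0.22 and adjusted p of 0.444 to 0.632, and 0 of 7 members had an unadjusted p under 0.05. Among all genes 7.27% were called and 33.0% had such a p in that contrast. The effect of HF did not differ detectably between the sexes, with differences of −0.10 to 0.07 on the log2 scale, which for H2-Ab1 had a 95% interval of −0.91 to 0.89. None of the 7 members reached an unadjusted p under 0.05 for maternal by offspring diet in males (4.10% of all genes), for the same in females (6.36%), for the difference of these between the sexes (7.71%), for offspring diet by sex (8.92%) or for maternal diet by sex (6.63%). These intervals are wide, and for Ciita the maternal by offspring diet term was 0.54 in males (SE 0.63, 95% interval −0.77 to 1.85) and 0.31 in females (SE 0.63).

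The ratios between members within a mouse varied less than the members did. Within groups the pooled SD was 0.52 to 0.59 on the log2 scale for single members, and 0.08 for H2-Ab1 over H2-Aa, 0.11 for H2-Eb1 over H2-Ab1, 0.11 for Cd74 over H2-Aa and 0.13 for H2-DMb1 over H2-DMa. The log2 ratio of H2-Ab1 to H2-Aa lay between −0.84 and −0.48 in all 24 libraries, where H2-Aa itself spanned 2.65 on the log2 scale. Much of the spread of single members came with VDD HF female 2081, without which H2-Aa spanned 1.43 and the pooled SD of the members was 0.28 to 0.37. Ciita over H2-Ab1 was looser, with a pooled SD of 0.32.

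Some of these ratios shifted with diet. Ratios were chosen after the values had been seen, and 6 of them were tested for HF minus LF and for VDD minus CTRL by an exact two-sided permutation test within strata (160000 arrangements, 12 tests). H2-DMb1 over H2-Ab1 was −3.87 under LF and −3.64 under HF (difference 0.22, exact p = 0.00131, adjusted p = 0.0157), so the DM beta chain gained on the I-A beta chain. Cd74 over H2-Aa was 0.31 under LF and 0.45 under HF (difference 0.14, exact p = 0.00946, adjusted p = 0.0464). Ciita over H2-Ab1 was −4.16 in offspring of CTRL mothers and −4.56 in offspring of VDD mothers (difference −0.40, exact p = 0.0116, adjusted p = 0.0464). In females it was −4.31 to −3.93 (CTRL LF) against −5.16 to −4.87 (VDD LF), and −4.27 to −3.80 (CTRL HF) against −4.60 to −4.31 (VDD HF), with no overlap on either diet. In males the ranges overlapped on both diets. Without the libraries named renal none of the 3 shifts passed, with −0.33 for Ciita over H2-Ab1 (exact permutation test, adjusted p = 0.276), 0.17 for H2-DMb1 over H2-Ab1 (0.163) and 0.16 for Cd74 over H2-Aa (0.163). The other 9 tests had adjusted p of 0.051 to 0.922, the lowest for Ciita over H2-Ab1 under HF against LF (0.34, exact p = 0.017). Dexi, which overlaps Ciita, differed by 0.29 (SE 0.09, adjusted p = 0.0721) between VDD and CTRL.

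**Figure D3:**
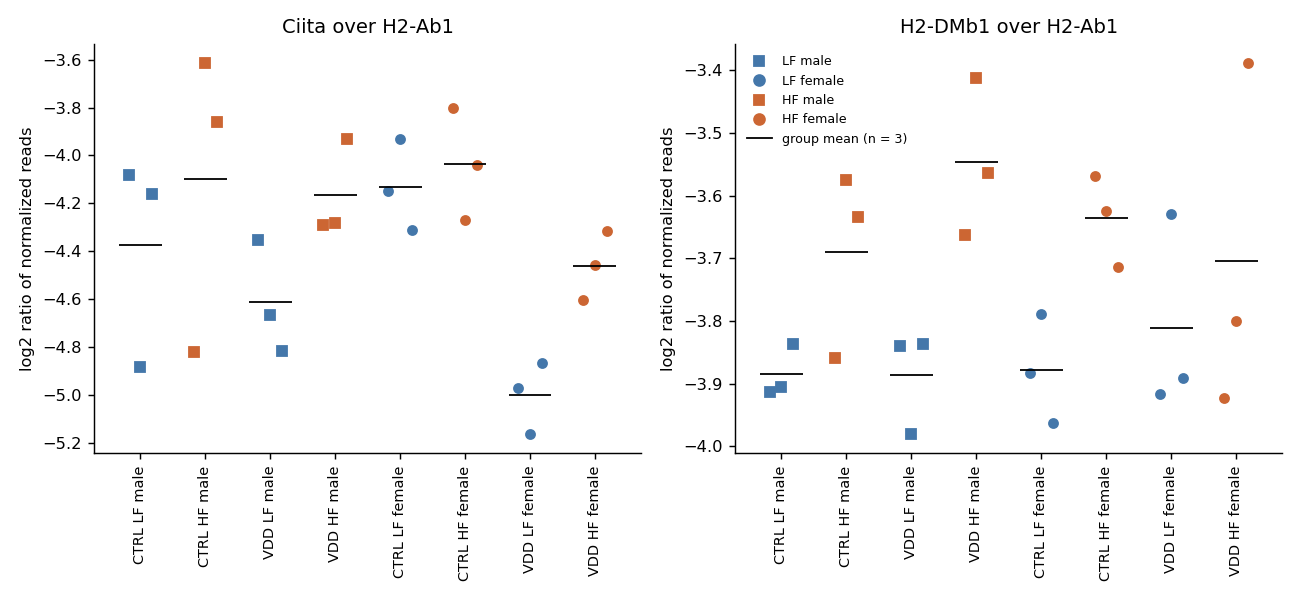
Log2 ratio of normalized reads of Ciita to H2-Ab1 (left) and of H2-DMb1 to H2-Ab1 (right) in each mouse by group, with black lines for group means (n = 3). At left the VDD LF females are lowest, from −5.16 to −4.87, and at right the HF groups have means from −3.70 to −3.55 against −3.89 to −3.81 for the LF groups.

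Across mice the members rose and fell together. With group means removed, Pearson's r between pairs of members was 0.81 to 0.99 (21 pairs, median 0.96) over 24 mice, and 0.53 to 0.98 (median 0.87) over the 23 mice other than VDD HF female 2081. The pairs share their libraries, and these r are a description. Ciita was related to each of the other 6 members, with r of 0.81 (H2-DMa) to 0.87 (H2-Aa) and Spearman's rho of 0.66 to 0.76, and permutation p adjusted over 12 relations of 0.0105 to 0.0252 for r and 0.012 to 0.0255 for rho. Without the 2 mice farthest from the median of Ciita (VDD HF females 2081 and 2083) r was 0.61 to 0.73, and 4 of the 6 relations kept an adjusted p under 0.05 (permutation p 0.0336, with 0.0536 for H2-Ab1 and 0.0785 for H2-DMa). In females alone r was 0.92 to 0.97 (12 mice, adjusted permutation p 0.0151 to 0.0495), and in males alone 0.49 to 0.62 (12 mice, 0.307 to 0.349). Without VDD HF female 2081 alone, r was 0.53 to 0.65 and the adjusted permutation p 0.0561 to 0.143, so these relations rested in part on that mouse.

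H2-Ab1 was set against 1 gene each of B cells, dendritic cells, CD11c+ cells, macrophages, T cells and adipocytes in the same family of 12 relations. It was related to Cd79a, a signalling chain of the B cell receptor, with r = 0.44 and rho = 0.63 (adjusted permutation p = 0.0105 and 0.012), and r was 0.59 without the 2 mice farthest from the median of H2-Ab1. It was related to Itgax, which encodes CD11c, with r = 0.69 (adjusted permutation p = 0.0287) and to Adgre1, which encodes F4/80, with r = 0.67 (0.022). Without the 2 mice these fell to 0.44 (0.0897) and 0.51 (0.0583), so both rested on them. The relations to Flt3 (r = 0.56, 0.0984), Cd3e (0.53, 0.107) and Adipoq (0.55, 0.14) missed an adjusted permutation p of 0.05. In males alone no relation of H2-Ab1 passed, with r from 0.10 for Cd3e to 0.68 for Cd79a.

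The genes around class II presentation followed the members only in part. For the counts below, 5.79% of all genes were called higher and 3.65% lower for HF vs LF over 24 libraries. Of the other class II genes, 0 of 4 tested were called for HF vs LF over 24 libraries, with a median log2 fold change of 0.32 beside 0.01 over all genes. The 2 with the smallest p were H2-DMb2, the second DM beta gene (0.53, SE 0.27, adjusted p = 0.142), and H2-Ob, a chain of the DO protein that restrains DM in B cells (0.36, SE 0.25, adjusted p = 0.31). These genes are sparse, with medians of 40.3 and 68.4 normalized reads.

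Genes of class II transcription did not move as a group, with 2 called higher and 1 lower of 16 tested and a median log2 fold change of 0.06. Spi1, which encodes the myeloid factor PU.1, rose by 0.99 (SE 0.22, adjusted p = 0.00233) and Irf8, a factor of dendritic cell and monocyte development, by 0.68 (SE 0.18, adjusted p = 0.00829). Irf4 fell by 2.81 (SE 0.28, adjusted p = 4e-06), from 635 to 9150 normalized reads in LF mice to 180 to 1836 in HF mice. Irf4 is known as a factor of lymphocytes and dendritic cells and also as a fasting-induced factor of adipocytes, and the list does not tell these sources apart.

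In endolysosomal processing 2 of 8 genes were called, both higher. Ctss, the cathepsin that trims the invariant chain, rose by 1.20 (SE 0.31, adjusted p = 0.00764), from 391 to 2014 normalized reads in LF mice to 477 to 4041 in HF mice, ranges that overlap. Ifi30, the lysosomal thiol reductase GILT, rose by 0.87 (SE 0.20, adjusted p = 0.00288). The list's median was 0.46.

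Interferon gamma targets had 4 of 8 genes called, all higher, with a list median of 0.78. Gbp5 rose by 0.89 (adjusted p = 0.000834), Socs1 by 0.80 (0.0083), Cxcl9 by 0.78 (0.00523) and Gbp2 by 0.77 (0.000304). Gbp2 and Gbp5 encode guanylate-binding proteins of cell-autonomous defence, Cxcl9 a chemokine for T cells and Socs1 an inhibitor of cytokine signalling. Ifng itself was too sparse to be tested. Of the class I presentation genes 0 of 10 were called, with a median of 0.20, and the 2 with the smallest p were Tapbp, which encodes tapasin (0.31, adjusted p = 0.00312), and Psmb9, a subunit of the immunoproteasome (0.38, adjusted p = 0.0566). Of costimulatory molecules and receptors 0 of 7 were called, with a median of 0.33, and Cd40 (0.81, adjusted p = 0.0152) and Icosl (0.42, adjusted p = 0.021) had the smallest p. The adjusted p of Tapbp passed and its fold did not.

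**Figure D4:**
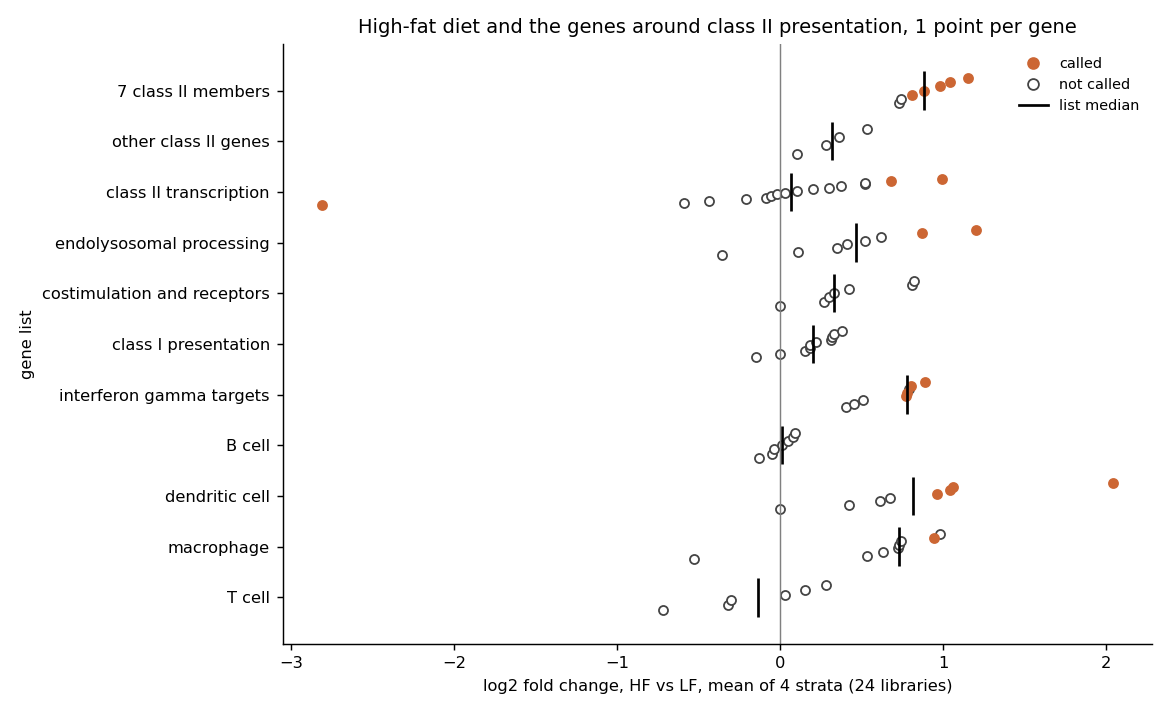
Log2 fold change for HF vs LF (mean of 4 strata, 24 libraries) of each tested gene, by list, with filled orange points for called genes, open points for the others and black bars for list medians. The class II members have a median of 0.88, interferon gamma targets of 0.78, dendritic cell markers of 0.81 and macrophage markers of 0.72, while B cell markers have a median of 0.01 and T cell markers of −0.13. The B cell and T cell medians average strata of opposite sign.

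Of the markers of cells that carry class II, 4 of 8 of dendritic cells, 1 of 8 of macrophages and 0 of 7 of B cells were called higher under HF. Of all genes 5.79% were. The dendritic cell list had a median of 0.81. Itgax rose by 2.04 (SE 0.31, adjusted p = 0.000146), from 9.36 to 58.2 normalized reads in LF mice to 41.0 to 339 in HF mice, Cd209a by 1.06, Batf3 by 1.04 and Xcr1 by 0.96. Itgax is also expressed by macrophages of obese fat, and Batf3 and Xcr1 belong to cross-presenting dendritic cells. The macrophage gene called was Cd68 (0.94, SE 0.24, adjusted p = 0.00594), in a list with a median of 0.72. At an unadjusted p under 0.05, which 39.7% of all genes reached, 7 of the 8 macrophage markers were higher and 1, the clearance receptor Mertk (−0.53, adjusted p = 0.0105), was lower. In the mean of 4 strata B cell markers had log2 fold changes of −0.13 to 0.09, and T cell markers had 0 of 6 called with a median of −0.13. These means average strata of opposite sign. The B cell median was −1.47 in CTRL males, −0.24 in VDD males, 0.75 in CTRL females and 1.06 in VDD females. The T cell median was −1.12, −0.64, −0.1 and 0.89. For offspring diet by sex, 5 of 7 B cell and 3 of 6 T cell markers reached an unadjusted p under 0.05 (limma). Of all genes 8.92% did, and none of these markers was called.

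Summed over each list, B cell markers ranged from 123 to 1695 normalized reads in LF mice and 151 to 643 in HF mice, and the highest sum was in CTRL LF males. With the mean log2 level of the B cell markers as a covariate, 5 of 7 members were called and the log2 fold changes were again 0.73 to 1.15. Dendritic cell sums ranged from 983 to 2535 under LF and 1098 to 3570 under HF, and macrophage sums from 3542 to 11916 and 4301 to 19456. The part of these cells in the class II values was not tested. Adipocyte markers had 1 of 6 called, Cidec (−0.66, adjusted p = 0.00326), a lipid droplet protein. Adipoq, the adipocyte hormone adiponectin, had 44740 to 109716 normalized reads, so the labelled tissue's defining marker was high in every library. For HF vs LF, markers of skeletal muscle (5 tested), mesothelium (5), endothelium (4), kidney (2) and adrenal (1) had none called, and of 2 tested lymph node and follicle genes Cxcl13, a B cell chemokine, fell by 1.66 (adjusted p = 0.000309).

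**Figure D5:**
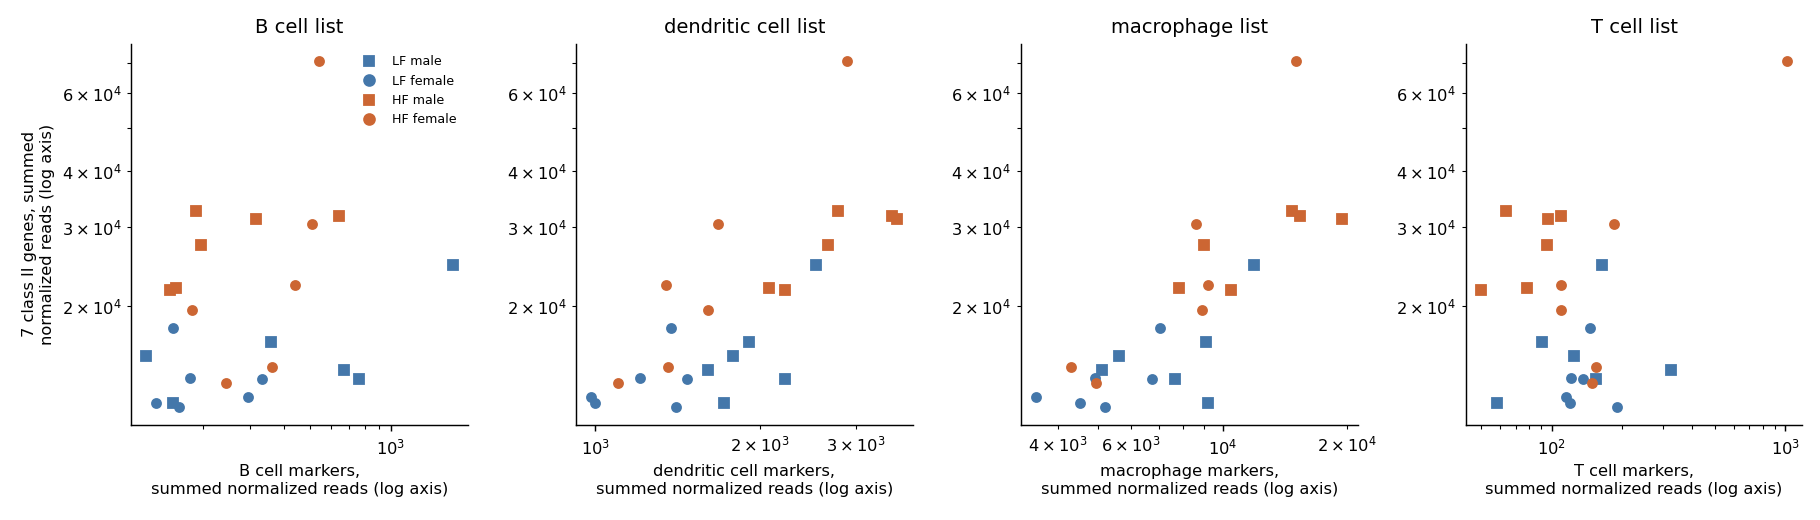
Summed normalized reads of the 7 class II genes against those of 4 marker lists in each of 24 mice (both axes log), with squares for males, circles for females, blue for LF and orange for HF. The top point in every panel is VDD HF female 2081 (class II sum 70672), which is also far to the right for T cells (1017), while HF and LF mice share the range of B cell sums.

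The genes most like the class II members across mice were chosen by Pearson's r, over 24 libraries with group means removed, to the mean of the members' scaled values. The 8 at the top were Coro1a (0.947), Selplg (0.945), Irf8 (0.937), Laptm5 (0.927), Nrros (0.925), Themis2 (0.919), H2-M3 (0.918) and Batf3 (0.917), and without VDD HF female 2081 their r was 0.71 to 0.86. Coro1a encodes a leukocyte coronin, Selplg the selectin ligand PSGL-1, Laptm5 a lysosomal protein of blood cells and H2-M3 a class Ib molecule. Of these 8 genes, Selplg (0.99), Batf3 (1.04), Laptm5 (0.84), Nrros (0.77), Irf8 (0.68) and Themis2 (0.66) were called for HF vs LF, and Coro1a (0.70, adjusted p = 0.0248) and H2-M3 (0.47, adjusted p = 0.0104) were not. None of the 8 was called for VDD vs CTRL over the 4 strata, with fold changes of −0.27 to −0.05.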

How the data were processed

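Poly(A) RNA of retroperitoneal adipose tissue was measured in 24 mice, 3 per group. Per the labels and the study's methods, the authors trimmed reads (Sickle), aligned them to mm10 with STAR 2.7.0d keeping unique positions, assembled further transcripts with Cufflinks 2.2.1 and counted with featureCounts 1.6.1. The authors' deposited tables (8, with 6 libraries each) hold log2(normalized reads + 1) with size factors of their own. Their fold changes, p-values and adjusted p-values were not used. Reversing the logarithm and the scale gave back read counts (100% whole within 0.02), which were divided by median-of-ratios size factors over 24 libraries for all comparisons across tables. A table's column names a group and a mouse, not a GEO sample, and was placed by group.

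limma 3.58.1 (lmFit, eBayes with trend) was fitted to genes that reached 10 normalized reads in 3 or more libraries, per table and over 24 libraries with 8 group means. Genes were called at an adjusted p under 0.01 (Benjamini-Hochberg over all genes) and a fold above 1.5 or below 0.66. The calls were tried on simulated data with known changes. There the fit over 24 libraries recovered most changed genes, while the fit of 3 against 3 libraries missed most of them. A missing call within a stratum is therefore weak evidence of no change. The planted changes were about as large as the largest HF changes of the members or larger. Recovery of smaller changes was not tested. All 7 members and every called gene of a list are named, otherwise the 2 with the smallest p, and the 8 genes most like the members. Members and lists were chosen with earlier results of these data known. The p-values measure the spread between mice. Alternatives were limma-voom with trimmed mean of M-values scaling, a pseudocount of 10 in place of 1, no filter, each library left out, the libraries named renal left out, B cell or skeletal muscle markers as a covariate, and for the 8 comparisons the fit over 24 libraries. Permutations numbered 100000.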

Additional observations from a re-analysis of the deposited data

How the results depend on the processing

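The number of members called for HF vs LF over the 4 strata was 5, as with limma-voom, a pseudocount of 10, the B cell covariate or the skeletal muscle covariate (added after the data were seen), 4 without the filter (H2-Ab1 lost), 0 without the 6 libraries named renal, and 4 to 7 when 1 library was left out (4 calls for 16 libraries, each time with H2-Ab1 lost). The 7 calls came without VDD HF female 2083 or 2121. The share of all genes called is not given for these alternatives. No member was called in any other comparison or contrast under any alternative run. With 1 library left out, no member turned direction for HF vs LF in CTRL males, VDD males, CTRL females or the mean of 4 strata, and 2 did in VDD females, H2-Ab1 (−0.07 to 1.18) and H2-Eb1 (−0.11 to 1.17), both without VDD HF female 2081. Estimates near 0 turned more often, for VDD vs CTRL in 6 of 7 members in HF males, 4 in LF females, 6 in HF females and 4 over the 4 strata. The members' median then ran from −0.24 to 0.18 in HF males, −0.73 to 0.39 in HF females, −0.88 to 0.29 for maternal by offspring diet in females, −1.11 to 0.07 for its difference from males, −0.41 to 0.20 for offspring diet by sex and −0.14 to 0.46 for maternal diet by sex. The lowest values of these last 5 came without VDD HF female 2081. The VDD minus CTRL difference of H2-Eb1 over H2-Ab1 ranged from −0.02 to 0.02 and that of H2-DMb1 over H2-Ab1 from 0.00 to 0.06 with 1 library left out.

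Of the relations across mice (alternatives without VDD HF female 2081 and without the libraries named renal were added after the data were seen), r of Ciita with H2-Aa, H2-Ab1, H2-Eb1, Cd74, H2-DMa and H2-DMb1 missed the threshold in males (0.59, 0.49, 0.59, 0.61, 0.57, 0.62), without VDD HF female 2081 (0.64, 0.56, 0.61, 0.65, 0.53, 0.62) and without the libraries named renal (0.87, 0.86, 0.87, 0.88, 0.84, 0.89). Without the 2 mice farthest from the median of x, r with H2-Ab1 (0.66) and H2-DMa (0.61) missed it. The r of H2-Ab1 with Cd79a, Itgax and Adgre1 missed it in males (0.68, 0.15, 0.43) and without VDD HF female 2081 (0.68, 0.33, 0.38), with Itgax and Adgre1 without the libraries named renal (0.74, 0.74) and without the 2 farthest mice (0.44, 0.51), and with Adgre1 in females (0.78). The cause was not tested. No paired analysis was possible because the groups are different mice with 1 library each and litter is not given.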
